A study of Mus musculus with 22 samples.

Results

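Zeb1, Zeb2, Snai1, Snai2, Twist1 and Twist2, the 6 transcription factors best known for switching epithelial cells to a mesenchymal state, were followed through the conversion of mouse primordial germ cells into embryonic germ cells. Their probes were picked by gene name: every measuring probe whose name in the scanner output was one of the 6 symbols was kept, with no measured value used. The 6 factors themselves were chosen with earlier results of these data known. This gave 10 of 41174 probes and 6 of 28104 genes, with 5 probes for Zeb2 and 1 for each of the other 5 genes.

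In an epithelial-mesenchymal transition (EMT), cells lose junctions and apical-basal polarity and gain motility. The zinc finger proteins of the Snail family (Snai1, Snai2) and Zeb family (Zeb1, Zeb2) repress genes such as Cdh1, which encodes the junction protein E-cadherin, by binding short E-box sequences. Twist1 and Twist2 are basic helix-loop-helix proteins that act with E proteins and are held back by Id proteins. In the embryo these factors are known from gastrulation, neural crest and mesenchyme, and the opposite switch, mesenchymal to epithelial, accompanies the making of pluripotent lines from fibroblasts.

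The 22 arrays held 1 sample for each of 22 conditions. Primordial germ cells (PGCs) of E11.5 embryos were taken uncultured, and after 1 day in bFGF, 2, 3 and 6 days in bFGF with 2i and A83, and 10 days, for which the label names no additions. Here 2i stands for the MEK inhibitor PD325901 (1 µM) with the GSK inhibitor CHIR99021 (3 µM), and A83 for the TGF-beta receptor inhibitor A83-01 (250 nM). Further 2-day cultures held bFGF with PD325901, with CHIR99021, with A83-01, with 4-hydroxytamoxifen (4OHT, 100 nM, added to activate AKT), or with 2i, A83 and 4OHT together, against bFGF alone. The labels used here do not name the AKT construct or the mouse strain. An embryonic germ cell (EGC) line and an embryonic stem cell (ESC) line stood at the end of the course, and uncultured cells, cultures and both lines were sorted as SSEA-1 positive cells, a surface sugar of germ and stem cells. Cultures were kept in Knockout DMEM with serum replacement and LIF. The remaining arrays held EBRTcH3 ESCs forced to express Prdm14, Vasa, Nanos2, Nanos3, Dnd, or, at day 2, Blimp-1, sorted as GFP positive, with cells expressing GFP alone, also at day 2, and the parental EBRTcH3 cells, for which no sort is labelled, as controls. Each line is a single line, and how many embryos were pooled per sample was not used here.

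A level is the log2 of a probe's background-subtracted signal less the log2 of the 75th percentile of all measuring probes on the same array, so 0 is a fairly bright probe. The 75th percentile itself ran from 120 with 2i, A83 and 4OHT to 750 on the ESC line, and 44.3% of probes were well above background on the dimmest array. Bulk arrays measure a sorted sample as a whole, so fewer cells of a type and less RNA per cell cannot be told apart. Of 12 fibroblast markers, 9 were well above background in uncultured PGCs, with a summed level of 3.06. The summed level was 5.43 to 8.32 in the 9 cultures without 4OHT, 3.36 with 4OHT, 2.18 with 2i, A83 and 4OHT, and 1.94 to 3.69 over the line arrays. Since each condition has 1 array, a difference between 2 conditions has no test, and a difference of at least 2-fold is counted instead.

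The probes read the following transcript stretches (mm9, first 30 bases 5′ to 3′), shown because each level below is the signal of 1 such probe. Snai1, plus strand, chr2:167368073-167368132, and Snai2, plus strand, chr16:14709361-14709420, belong to the Snail family. Twist1 lies on the plus strand at chr12:34644411-34644470, Twist2 on the plus strand at chr1:93744519-93744577, and the Zeb2 probe with the highest mean level on the minus strand at chr2:44844068-44844127. Cdh1, the classical target, was read at chr8:109193812-109193871 on the plus strand.
Snai1: gtttcacagcagtttaactgtctcagaagg
Snai2: gtgaggtacggttaatagccacgcctatat
Twist1: atggtaacaatcagaggaattttaacacct
Twist2: ttattgagatattttaccagctaagtgact
Zeb2: acgaggaagacaatatggaagatggcatgg
Cdh1: acattctaacgggaaaaaggagacaagacc

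All 6 factors stood higher after 1 day in culture than in uncultured PGCs, all by more than 3-fold. Zeb1, which represses epithelial genes and is itself held down by miR-200 microRNAs, had a level of -0.18 at day 1 against -3.24 in uncultured cells, an 8.34-fold difference. Zeb2, its paralog, had -0.48 against -3.18 (6.46-fold). These 2 genes showed the widest gaps of the family. Snai2, the neural crest member of the Snail family, had 0.81 at day 1 against -1.63 in uncultured cells (5.41-fold), and Snai1, the gastrulation member, had -0.88 against -2.54 (3.16-fold). Twist2, a factor of dermal and skeletal mesenchyme, had -0.47 against -2.88 (5.32-fold), and Twist1, a factor of cranial mesenchyme, had -0.84 against -2.49 (3.13-fold). All 12 of these values came from spots well above background. Of all genes measured in this pair, 47.6% differed by 2-fold or more at day 1 (16.3% up, 31.3% down), with a median log2 difference of -0.42. The uncultured array lay alone on its slide, so slide and culture cannot be told apart here, and the 75th percentile was 631 at day 1 against 203 in uncultured cells, whose part in the gap was not tested. With normexp correction and quantile normalization all 6 were still at least 2-fold higher, by 1.03 to 1.96 on the log2 scale.

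Cdh1 was not lower at day 1. Its level was 1.12 at day 1 against -0.15 in uncultured cells, 2.41-fold higher. Among 20 epithelial genes, 5 were at least 2-fold higher and 8 at least 2-fold lower, and the higher ones included the desmosome protein Dsp (6.05-fold), the junction protein Cldn4 (5.97-fold) and the keratins Krt8 (4.53-fold) and Krt18 (4.14-fold). Of 13 mesenchymal genes, 10 were at least 2-fold higher and 0 lower, including the collagen cross-linking enzyme Loxl2 (45.4-fold), the motility protein S100a4 (25.7-fold) and fibronectin Fn1 (23.3-fold). Among 12 upstream signals 5 were higher and 1 lower. The higher ones included the TGF-beta receptor Tgfbr2 (10.9-fold), its ligands Tgfb2 (6.95-fold) and Tgfb1 (4.11-fold), and Notch1 (5.79-fold). All 4 Id genes, whose proteins tie up the partners of Twist, were lower: Id4 by 16.2-fold, Id1 by 15.9-fold, Id3 by 14.4-fold and Id2 by 10.3-fold. The same pair had 6 of 11 measured fibroblast markers higher by this measure, and 2 lower. Gonadal somatic markers had 5 of 6 lower and 1 higher (median -2.18), and blood and macrophage markers, with 2 of 4 lower by this measure, a median of -5.02 and a summed level of -0.23 at day 1 against 5.06 in uncultured cells. The part of these cell types in the factors' levels was not tested.

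**Figure D1:**
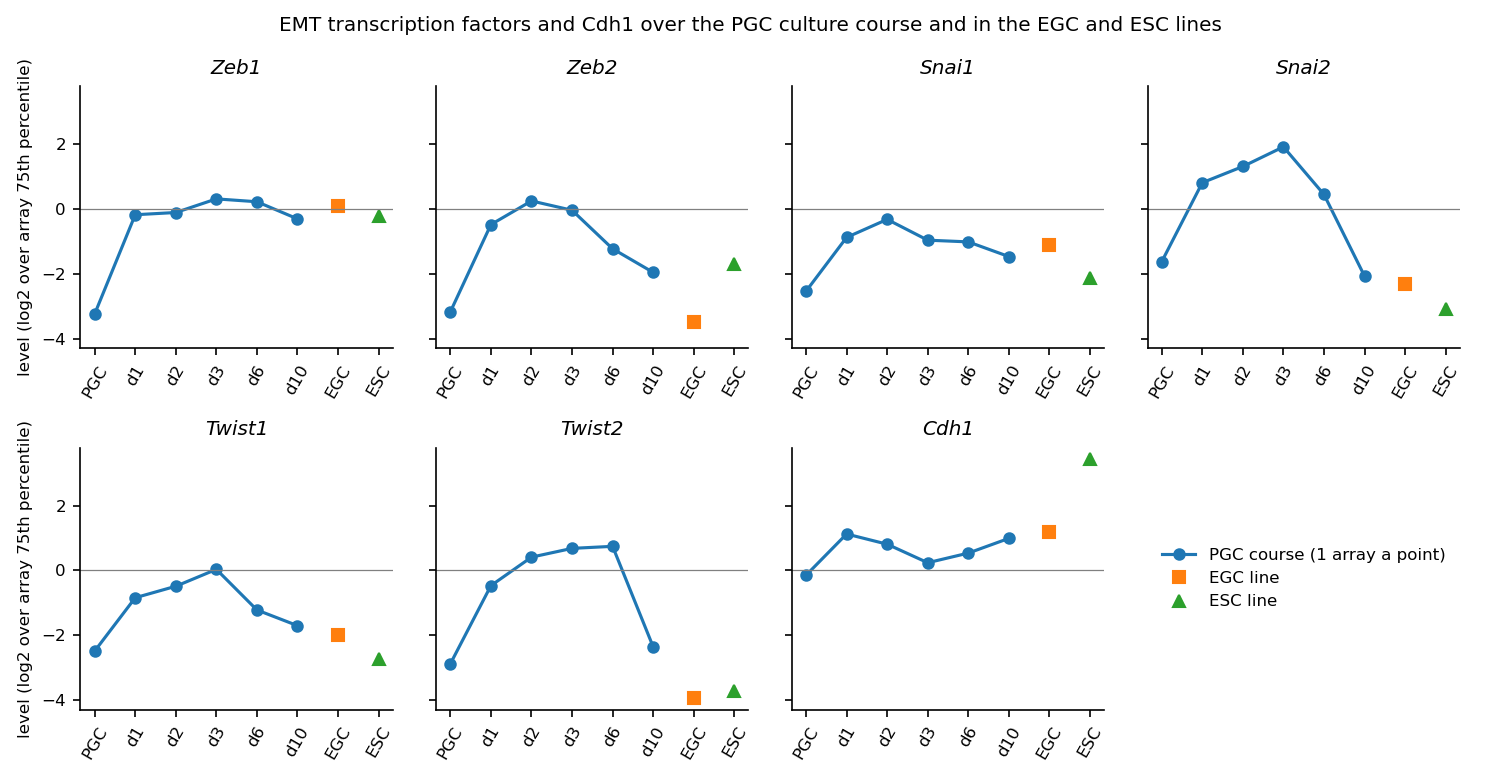
Levels (log2 signal over the array's 75th percentile) of the 6 factors and Cdh1 in uncultured PGCs, cultures of days 1 to 10, the EGC line and the ESC line, 1 array each. All 6 factors are higher at day 1 than in uncultured cells, and Snai2 and Twist2 stand below -2 at day 10 while Zeb1 stays near 0.

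Between neighbouring days from day 1 to day 3 the factors differed less. Against day 1, 0 of 6 were 2-fold apart in the day 2 culture with 2i and A83, where 8.82% of all genes were, 3.72% higher and 5.09% lower, and Snai1 (2.51-fold) and Twist2 (2.16-fold) were higher in the day 2 culture with bFGF alone, where 9.13% of all genes were apart, 3.86% higher and 5.27% lower. Against day 2 with 2i and A83, 0 of 6 were 2-fold apart at day 3 (9.42% of all genes). Over both steps together Snai2 had 1.91 at day 3 against 0.81 at day 1, and Twist2 0.68 against -0.47, the widest gaps of the family. Snai1 had -0.97 against -0.88. The share of all genes apart by 2-fold was not counted for that pair. The day 3 array lay on another slide than the day 1 and day 2 arrays compared here, so slide and day cannot be told apart for day 3. Snai2 and Zeb1 (0.31) had their highest level on any of the 22 arrays at day 3.

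All 6 factors had lower levels at day 10 than at day 3, by unequal amounts, with Zeb1 at -0.31 against 0.31 and Snai1 at -1.47 against -0.97 the nearest to no difference. At day 6, 3 factors were at least 2-fold lower than at day 3, where 7.59% of all genes were lower: Snai2 had 0.44 against 1.91 (2.77-fold), Twist1 -1.22 against 0.03 (2.38-fold) and Zeb2 -1.23 against -0.04 (2.28-fold). Twist2 did not share that step, with 0.74 at day 6 against 0.68 at day 3. It was lower at day 10, at -2.36 against 0.74 at day 6 (8.57-fold), and Snai2 was lower again, at -2.07 against 0.44 (5.72-fold). These 2 of 6 compare with 9.45% of all genes lower in that pair. Zeb1 had 0.22 at day 6 and -0.31 at day 10, and Snai1 had -1.02 and -1.47. The day 6 and day 3 arrays shared a slide, while the day 10 array lay on another, together with the day 1 and day 2 arrays without single inhibitors or 4OHT. Against the day 2 array with 2i and A83 on that slide, 5 of 6 factors were at least 2-fold lower at day 10, where 14.3% of 15108 genes were: Snai2 by 10.4-fold, Twist2 by 6.80-fold, Zeb2 by 4.61-fold, Twist1 by 2.32-fold and Snai1 by 2.21-fold. Zeb1 differed by 1.15-fold there. The label of day 10 names no additions, so time and medium cannot be told apart at that step.

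Mesenchymal genes and upstream signals were mostly lower over the same days, while other EMT transcription factors were mixed at day 6. Of 13 mesenchymal genes, 4 were at least 2-fold lower and 1 higher at day 6 against day 3, and 5 were lower and 0 higher at day 10 against day 6. Among 12 upstream signals 4 and then 5 were lower and 0 higher, including Tgfb2 (3.39-fold lower at day 6, 3.85-fold at day 10), Tgfb1 (3.29-fold and 3.59-fold) and, at day 10, the chromatin protein Hmga2 (4.83-fold). Of the other EMT transcription factors, Sox9 (4.53-fold), Prrx1 (3.70-fold) and Foxc1 (3.47-fold) were lower at day 10 than at day 6, and Foxc2 was lower by at least 5.34-fold. Prrx2 was 7.53-fold higher at day 6 than at day 3, and so was Grhl2, an epithelial factor that opposes Zeb1 (5.55-fold). Epithelial genes did not go one way: of 19 measured, 1 was higher and 3 lower at day 6, then 3 higher and 5 lower at day 10, among them Krt8, lower by 4.70-fold at day 10. The summed fibroblast level was 7.15 at day 3, 6.32 at day 6 and 5.77 at day 10, with 11 of 12 markers well above background at day 10. On the same days the summed pluripotency level was 5.36, 6.62 and 7.41, and the summed germ cell level 3.63, 4.66 and 5.43. The part of such changes in makeup in the factors' levels was not tested.

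A trend on log2(day + 1) was fitted with limma to the uncultured array and the 5 cultures of the course. It put 0 of 19044 genes (0%) and 0 of 6 factors past an adjusted p of 0.05, and 2411 genes and 0 of 6 factors had an unadjusted p below it. Zeb1 had the largest slope of the family, 0.75 ± 0.33 (SE), with an adjusted p of 0.419 in limma. Without the uncultured array that slope was -0.0085.

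In the finished lines the family separated by member. Zeb1 had 0.08 in the EGC line and -0.23 in the ESC line, both within the range of the cultures, but had -3.17 in parental EBRTcH3 cells, beside -3.24 in uncultured PGCs. Zeb2 had -3.47 in the EGC line and -1.70 in the ESC line and was not well above background in parental EBRTcH3 cells. Snai1 had -1.11 in the EGC line, -2.13 in the ESC line and -0.73 in the parental cells, so the ESC line had the lowest value of the 3. Snai2 had -2.31 in the EGC line and -3.10 in the ESC line, and Twist2 had -3.93 and -3.73, and neither was well above background in the parental cells. Twist1 varied least, with -2.00 in the EGC line, -2.73 in the ESC line and -2.49 in the parental cells.

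The EGC line differed from the ESC line by at least 2-fold in 2 of 6 factors, where 18.9% of all genes did, 11.8% higher and 7.09% lower. Snai1 was 2.03-fold higher and Zeb2 3.43-fold lower in the EGC line, and with normexp and quantile normalization 0 of 6 reached 2-fold. Cdh1 had 1.18 in the EGC line against 3.42 in the ESC line, 4.72-fold lower. Of 19 measured epithelial genes, 10 were at least 2-fold lower in the EGC line and 1 higher, and Gsc, a homeobox factor of the gastrula organizer, was higher by 3.53 on the log2 scale. Against day 10, the EGC line had lower Twist2 (2.96-fold) and Zeb2 (2.86-fold), 2 of 6 where 6.46% of all genes were lower, and again 0 of 6 with normexp and quantile normalization. The EGC, ESC and day 10 arrays each lay on a different slide, so slide and sample cannot be told apart in these pairs. The 75th percentile was 454 on the EGC line and 750 on the ESC line, and its part was not tested.

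The 11 cultures were then set against the 3 lines, the EGC line, the ESC line and parental EBRTcH3, in a limma fit over all genes. No slide held both a culture and a line array, so slide and group cannot be told apart in this fit. Snai2, Twist1 and Twist2 were higher in the cultures, 3 of 6 factors, where 11.4% of 21154 genes passed 6.34% as higher and 5.1% as lower. Twist2 ranged from -2.36 to 1.39 in the cultures (median 0.41), against -3.93 in the EGC line, -3.73 in the ESC line and -5.72 in parental EBRTcH3 cells. Its log2 difference was 4.28 ± 0.75 (SE), with an adjusted p of 0.0037 in limma. Since the parental cells gave only a background-level signal, this amounts to at least 11.6-fold. Snai2 ranged from -2.07 to 1.91 in the cultures (median 0.81), against -2.31, -3.10 and -4.63 in the EGC, ESC and parental lines. The difference was 3.83 ± 0.82 (SE; limma adjusted p 0.010), or at least 10.9-fold. Twist1 ranged from -1.71 to 0.05 in the cultures (median -0.84), against -2.00, -2.73 and -2.49 in the EGC, ESC and parental lines, a difference of 1.59 ± 0.40 (SE; limma adjusted p 0.022).

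For these 3 factors every one of the 11 cultures lay above every one of the 3 lines, as 3.5% of all genes did. They also lay above all 10 ESC and EGC line arrays, constructs included, as 1.83% did, and 8 of those arrays come from the EBRTcH3 line. The nearest culture was day 10 for all 3. Twist1 had -1.71 there, against -2.00 in the EGC line and -1.79 on the Nanos3 construct array. Snai2 had -2.07 against -2.31 in the EGC line, so for Twist1 and Snai2 the groups are close at that end. Twist2 had -2.36 at day 10 against -3.73 in the ESC line. The other 3 factors overlapped. Zeb2 ranged from -4.88 to 0.24 in the cultures, and its difference of 2.38 ± 1.01 (SE) had an adjusted p of 0.140 in limma. Zeb1 differed by 0.52 ± 0.77 (adjusted p 0.747) and Snai1 by 0.22 ± 0.57 (adjusted p 0.872), both in the same limma fit. The median of the 6 differences was 1.98, beside -0.17 over all genes tested.

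**Figure D2:**
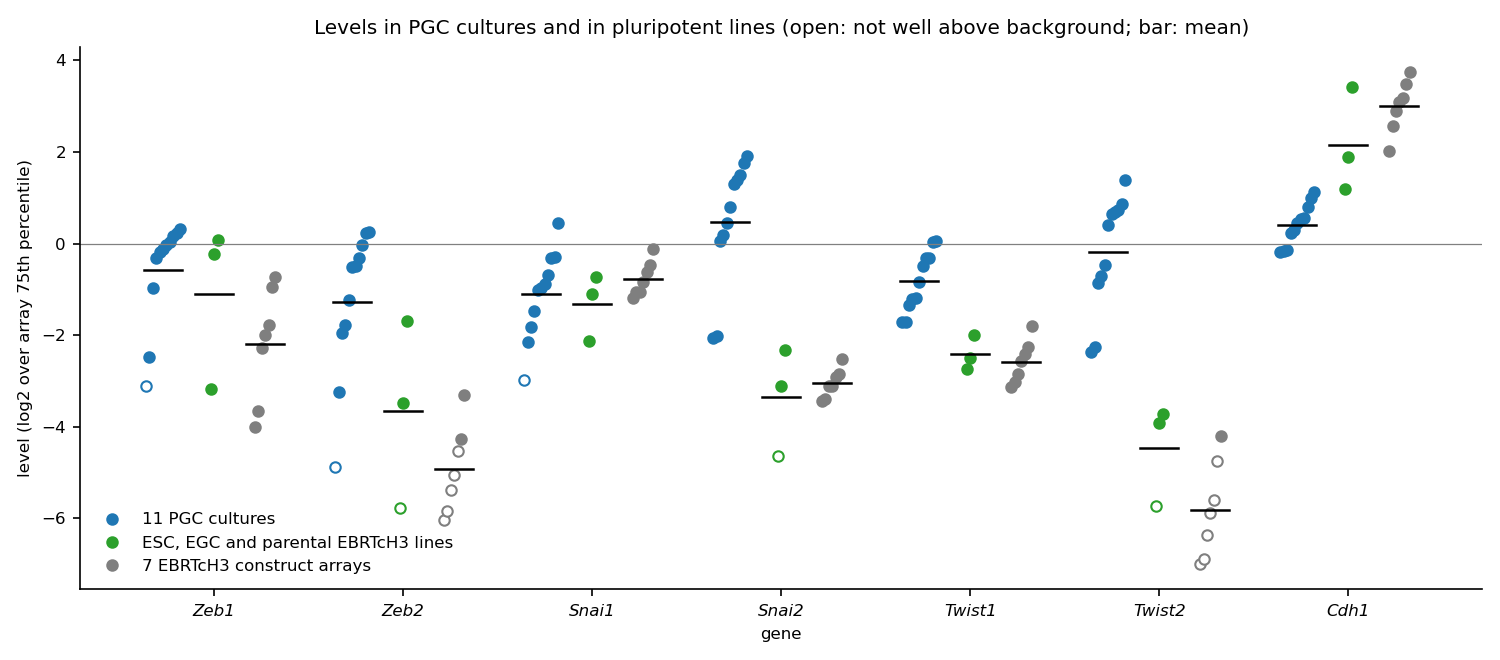
Levels (log2 signal over the array's 75th percentile) of the 6 factors and Cdh1 in the 11 PGC cultures, the 3 lines and 7 EBRTcH3 construct arrays, 1 point per array. Snai2, Twist1 and Twist2 in every culture lie above all 3 lines, Cdh1 below all 3, and Zeb1, Zeb2 and Snai1 overlap.

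The calls differ in how far they rest on single arrays, and the parental array was the dimmest line, with a 75th percentile of 195. Twist2 remained past the threshold without any 1 of the lines, with slide as a random block (adjusted p 0.0380) and with the course cultures alone (0.0465, all limma). Snai2 did not pass without the parental cells (adjusted p 0.0654), with the course cultures alone (0.0795) or with the slide block (0.0901). Twist1 did not pass without the parental cells (0.0759), without the ESC line (0.0824), with the course cultures alone (0.108) or with the slide block (0.137). Zeb2 passed when all 10 line arrays served as lines (3.27, limma adjusted p 0.000223). Of these, 8 arrays come from the single EBRTcH3 line and are not independent lines, and Zeb2 was well above background on 2 of the 8. Zeb2 also passed when both 4OHT arrays were left out (3.00, limma adjusted p 0.0158), a setting chosen after the data were seen. Over the alternatives 240 to 9151 genes passed in all.

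Cdh1 stood the other way. It ranged from -0.19 to 1.12 in the cultures (median 0.45), against 1.18 in the EGC line, 3.42 in the ESC line and 1.88 in parental EBRTcH3 cells, and was lower in the cultures (log2 difference -1.76 ± 0.41, SE; limma adjusted p 0.0150). All 11 cultures lay below all 3 lines, as 3.2% of all genes did, although the EGC line was close to the day 1 culture. It was the 1 gene of 20 epithelial genes to pass, and the median of that list was -0.14. Within the cultures the relation differed with the arrays taken. Over all 11, Cdh1 had a Pearson r of -0.30 with Twist2, -0.33 with Twist1 and -0.18 with Snai2, and of 0.08 to 0.22 with Snai1, Zeb2 and Zeb1. Over the 9 without 4OHT these were -0.74, -0.70 and -0.62, and -0.39 to -0.33.

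Mesenchymal genes were mostly higher in the cultures than in the lines: 12 of 13 had a positive difference, 4 passed, and the median was 1.66. Among them were Cdh2, which encodes N-cadherin (3.10), S100a4 (2.94) and the intermediate filament gene Vim (2.21). All 12 upstream signals had a positive difference and 4 passed, Tgfbr2 (4.60, limma adjusted p 0.0011), Tgfb2 (3.40), Tgfb3 (2.73) and Tgfb1 (2.56), with a median of 1.70. Of 9 other EMT transcription factors tested, Foxc1 (3.42), Sox9 (3.17) and Prrx1 (2.16) passed as higher and 0 as lower. Among 12 partners and cofactors, Id1 (1.58) passed as higher, and the corepressors Ctbp2 (-1.43) and Kdm1a (-1.09), which Zeb and Snail proteins recruit, passed as lower. Of 6 genes for the degradation of Snail and Twist proteins or its control, the kinase Lats2 (2.25) passed.

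Fibroblast markers moved with these results. Of 12, 11 had a positive difference and 5 passed as higher, Col3a1 (6.61), Dcn (6.20), Col1a2 (3.48), Dpt (2.91) and Lum (2.27), with a median of 2.59. Over all 11 cultures, which share slides and medium, the summed fibroblast level had a Pearson r of 0.70 to 0.98 with the 6 factors, and the log2 of the 75th percentile, a measure of array brightness, 0.69 to 0.95. Over the 9 cultures without 4OHT, the fibroblast sum had a Pearson r of 0.91 with Zeb2, 0.85 with Snai1, 0.62 with Twist1, 0.61 with Snai2, 0.53 with Twist2 and 0.51 with Zeb1, and brightness had an r of 0.59 to 0.84 with the 6. The part of fibroblasts or of brightness in the factors' differences was not tested. Also different were the pluripotency genes, of which Esrrb (-2.26), Sox2 (-2.13) and Pou5f1 (-2.01), 3 of 5 tested, passed as lower in the cultures. Markers of other cells passed in small numbers: Lhx9 (3.37) of 7 gonadal somatic genes and Dazl (2.98) of 8 germ cell genes as higher, and Cdh5 (-2.28) and Tek (-2.16) of 5 endothelial genes and Laptm5 (-5.61) of 5 blood genes as lower.

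**Figure D3:**
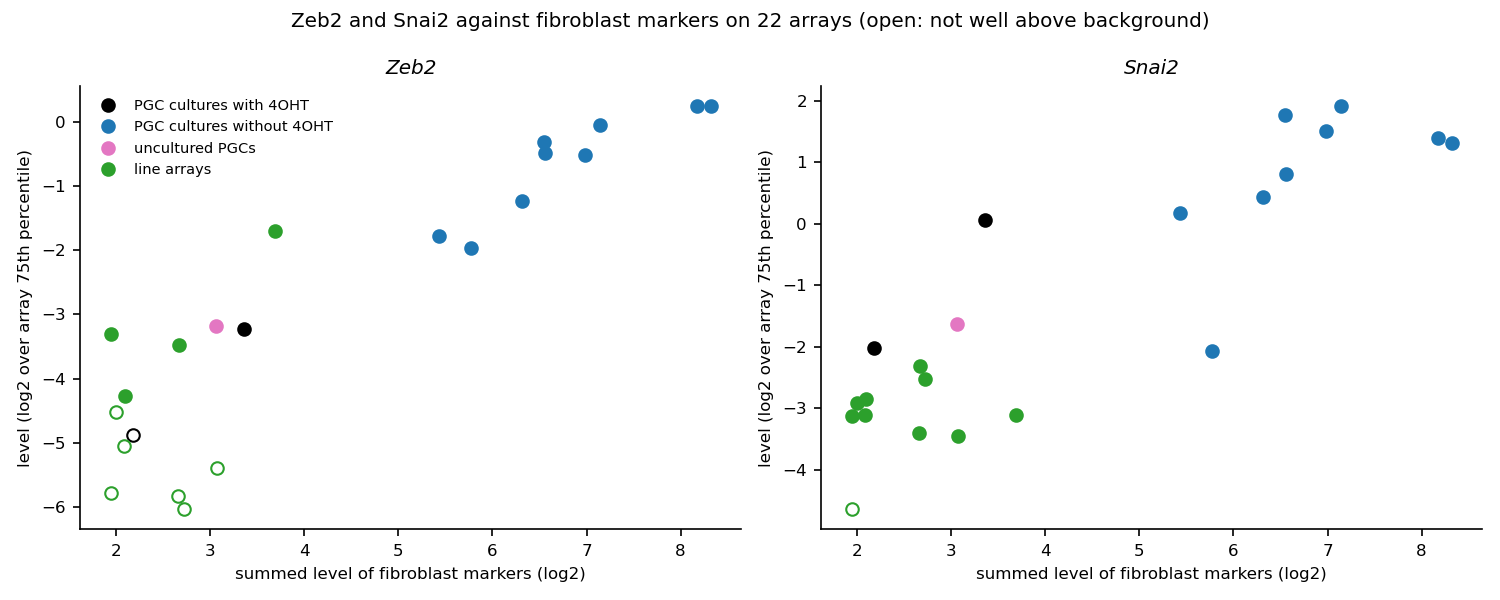
Levels of Zeb2 and Snai2 (log2 signal over the array's 75th percentile) against the summed level of 12 fibroblast markers, 1 point per array. The 9 cultures without 4OHT lie at 5.43 to 8.32 on the x axis, and both 4OHT arrays, uncultured PGCs and the lines lie at 1.94 to 3.69.

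Uncultured PGCs could be compared with the lines only as 1 array, alone on its slide, against 3. In limma 0 of 6 factors and 0 of 18956 genes (0%) passed, and 0 of 6 factors and 1873 genes had an unadjusted p below 0.05. Snai2 was at -1.63 in uncultured PGCs, above -2.31, -3.10 and -4.63 in the EGC, ESC and parental lines, with a difference of 1.72 (limma adjusted p 0.713). Zeb1 lay the other way, 2.14 below the mean of the lines (log2 difference -2.14, limma adjusted p 0.736), with the EGC and ESC lines near 0 and the parental cells at -3.17.

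Among the day 2 additions, the GSK inhibitor went with the lowest levels of the family outside 4OHT. The arrays with a single inhibitor shared a slide, and bFGF alone lay on another. Slide and inhibitor therefore cannot be told apart in differences from bFGF alone. With CHIR99021 against bFGF alone, 5 of 6 factors were at least 2-fold lower, where 6.89% of all genes were. Snai1 had -1.82 against 0.45 (4.81-fold), Zeb2 -1.79 against 0.24 (4.07-fold) and Twist2 -0.71 against 0.64 (2.54-fold). Snai2 had 0.18 against 1.39 (2.31-fold), Zeb1 -0.96 against 0.04 (2.00-fold, at the limit) and Twist1 -1.18 against -0.31 (1.83-fold). All 6 lay below bFGF alone, and Snai1 and Zeb2 lay furthest. The same held on 1 slide: against the mean of the PD325901 and A83-01 arrays hybridized beside it, all 6 were 2.04 to 3.58-fold lower with CHIR99021, Twist2 most, where 3.56% of 15796 genes were lower by that much.

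The limma fit over the 7 day 2 arrays, with a term for each addition, draws on all 3 arrays with the GSK inhibitor. There all 6 terms were negative, from -0.78 for Twist1 to -1.49 for Twist2, but 0 of 6 factors and 0% of 19096 genes passed. Twist1 and Twist2 had an unadjusted p below 0.05, as did 907 genes, and the adjusted p of all 6 was 0.901. The day 2 array with 2i and A83, which held the same dose of CHIR99021, shared a slide with bFGF alone. It was not 2-fold below bFGF alone for any factor, where 3.93% of all genes differed. There Snai1 had -0.32 against 0.45, Zeb2 0.24 against 0.24 and Snai2 1.31 against 1.39. The fibroblast sum was 5.43 with CHIR99021 against 8.18 with bFGF alone, and 8 of 12 fibroblast markers, whose median difference was -2.62, were lower by 2-fold or more. Their part in the lower levels was not tested.

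Epithelial genes went the other way with CHIR99021. Of 20, 12 were at least 2-fold higher and 1 lower than with bFGF alone, where 11.6% of all genes were higher and 6.89% lower. The higher ones included the protease inhibitor Spint2 (4.60-fold), Krt8 (4.04-fold) and the tight junction proteins Ocln (4.01-fold) and Cldn6 (3.62-fold). The median of the list was 1.30, beside 0.14 over all genes. Cdh1 itself had 0.55 against 0.29. Gonadal somatic markers were higher too, 3 of 6 measured by at least 2-fold and 1 lower, with a median of 1.64 and a summed level of 1.38 with CHIR99021 against -0.22. Of 13 mesenchymal genes 4 were lower and 1 higher. The matrix protease Mmp2 (4.12-fold), tenascin Tnc (3.74-fold) and Fn1 (2.71-fold) were lower, and the actin-binding protein Tagln was 8.29-fold higher.

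**Figure D4:**
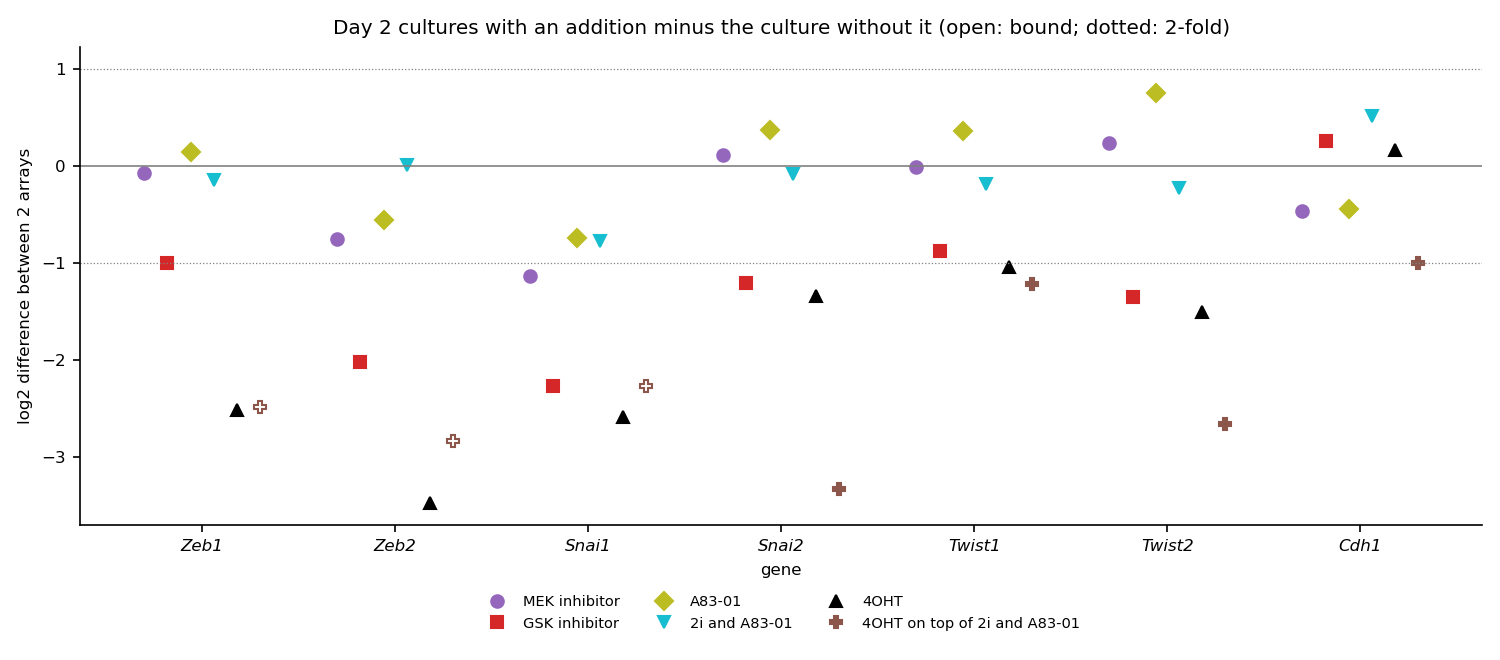
Log2 differences between 2 day 2 arrays for the 6 factors and Cdh1, the culture with an addition minus that without it. Open symbols are bounds. All 6 factors are lower with CHIR99021 than with bFGF alone, and lower with 4OHT in both of its pairs.

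With the other inhibitors, also on another slide than bFGF alone, few factors were 2-fold from it. Slide and inhibitor cannot be told apart in these pairs. With PD325901, 1 of 6 was 2-fold lower, where 3.53% of all genes were: Snai1 had -0.69 against 0.45 with bFGF alone (2.19-fold), and with normexp and quantile normalization 0 of 6 did. With A83-01, 0 of 6 were 2-fold apart, where 12.9% of all genes were. Twist2 had 1.39 with A83-01 against 0.64 with bFGF alone, its highest value on any array, and Snai2 had 1.76 against 1.39. In limma 0 of 6 factors and 0% of genes passed for either inhibitor, 0 of 6 had an unadjusted p below 0.05, and 621 genes for PD325901 and 712 for A83-01 did. TGF-beta receptors, which A83-01 blocks, are a classical route to Snail and Zeb genes. With A83-01, 0 of 13 mesenchymal genes were 2-fold apart, while fibroblast markers were lower by that much in 9 of 12.

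Both arrays with 4OHT gave the lowest day 2 levels of all 6 factors. With 4OHT and bFGF against bFGF alone, all 6 were at least 2-fold lower, where 11.3% of all genes were and the median of all genes was 0.35. Zeb2 had -3.23 against 0.24 (11.1-fold), Snai1 -2.14 against 0.45 (6.02-fold) and Zeb1 -2.48 against 0.04 (5.72-fold). Twist2 had -0.86 against 0.64 (2.84-fold), Snai2 0.06 against 1.39 (2.53-fold) and Twist1 -1.35 against -0.31 (2.06-fold). With 2i, A83 and 4OHT against 2i and A83, all 6 were again at least 2-fold lower, where 15.6% of all genes were. Snai2 had -2.02 against 1.31 (10.0-fold), Twist2 -2.25 against 0.41 (6.30-fold) and Twist1 -1.70 against -0.49 (2.32-fold). Zeb1, Zeb2 and Snai1 were not well above background where 2i, A83 and 4OHT were combined, and were lower there by at least 5.58-fold, 7.14-fold and 4.81-fold. Since the last 3 folds are lower bounds, the members cannot be ranked in this pair. Against 4OHT alone, the combination of 2i, A83 and 4OHT was at least 2-fold lower in 2 of 6, Snai2 (4.21-fold) and Twist2 (2.61-fold), where 4.89% of all genes were. Twist1 was 1.28-fold lower. Zeb1 and Snai1 gave only bounds under 2-fold in that pair and Zeb2 gave no value, so these could not be scored.

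In limma the 4OHT term was -3.57 ± 0.67 for Zeb2, -2.58 ± 0.30 for Zeb1, -2.11 ± 0.49 for Snai2, -2.00 ± 0.34 for Twist2, -1.96 ± 0.54 for Snai1 and -1.05 ± 0.26 for Twist1 (SE). All 6 had an unadjusted p below 0.05 and adjusted p of 0.0525 to 0.0661 in limma, so 0 of 6 passed, as did 0% of 19096 genes, 8896 of which had an unadjusted p below 0.05. In 3 of 6 other settings 4 to 6 of the 6 factors passed, together with 4112 to 15772 genes in all. Both 4OHT arrays lay on 1 slide that held no other array, so slide and 4OHT cannot be told apart. They also had the lowest 75th percentiles of the day 2 arrays, 242 and 120, and fibroblast sums of 3.36 and 2.18. In the pair with bFGF, 8 of 12 fibroblast markers, whose median difference was -3.66, were lower by 2-fold or more. Their part in the factors' levels was not tested.

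Around them, 14 of 20 epithelial genes were at least 2-fold higher and 1 lower with 4OHT than with bFGF alone. Of all genes in this pair, 26.1% were higher and 11.3% lower by that much. Spint2 was higher by 7.17-fold and Krt8 by 6.37-fold. Cdh1 had 0.45 with 4OHT against 0.29. Of 6 measured gonadal somatic markers 4 were at least 2-fold higher and 0 lower, with a median of 2.13 and a summed level of 1.56 against -0.22. Of 13 mesenchymal genes 6 were lower, including Mmp2 (10.6-fold) and Cdh2 (5.21-fold), and Tagln was 12.8-fold higher. Snai3, the least studied Snail gene, was 5.30-fold higher, opposite to Snai1 and Snai2.

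Forced germ cell genes in EBRTcH3 ESCs left the family without a call. Over the 8 arrays Snai1 kept to -1.19 to -0.12, Twist1 to -3.13 to -1.79 and Snai2 to -4.63 to -2.52, and all 3 were well above background on 7 or 8 of the 8. Zeb2 was well above background on 2 of 8 and Twist2 on 1 of 8, with the Nanos3 array the highest for both, at -3.31 and -4.21. Zeb1 spread widest of the factors measured on all 8, from -4.00 with Nanos3 to -0.74 with GFP alone (median -2.14). In limma, with slide as a block, 0 of 6 factors passed for any of the 6 constructs, where 0.0104% of all genes passed for Dnd and 0% for each of the others. The largest difference was that of Zeb2 with Nanos3 (1.91 ± 0.38, SE). Zeb2 was not well above background on the other arrays of that slide, Nanos2 and Dnd. Snai2 with Prdm14 differed by 1.49 ± 0.55 (SE). Each construct is 1 array, so its own spread is not known.

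The 5 Zeb2 probes did not tell the same story. A second probe on the Zeb2 mRNA, at chr2:44842774-44842833, ran beside the one used, with a cultures against lines difference of 2.37 (limma adjusted p 0.169) and the same order of day 2 additions. In the 4OHT fit over single probes both of these had an adjusted p of 0.0488 in limma, just under the threshold. The share of all probes that passed there is not reported here. In the fit over genes, 8896 of 19096 had an unadjusted p below 0.05. The third probe on the Zeb2 mRNA, at chr2:44840038-44840097, was well above background on 4 of 22 arrays, all of them day 2 cultures without CHIR99021 alone or 4OHT. The other pair were designed on cDNA clones from the Zeb2 locus, upstream on the minus strand: one at chr2:44876512-44876571 was well above background on 7 arrays, and one at chr2:44864778-44864837 on 2. That last probe had -1.74 at day 10, -4.80 in the ESC line and a background-level signal on the other 20 arrays, so day 10 was its highest array while the pair of mRNA probes were lower there than at day 6. Its first 30 bases are shown because its reading parts from the mRNA probe printed above at day 10.
Zeb2 clone probe: gaacacatcttgtttagctagggaattaaa

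**Figure D5:**
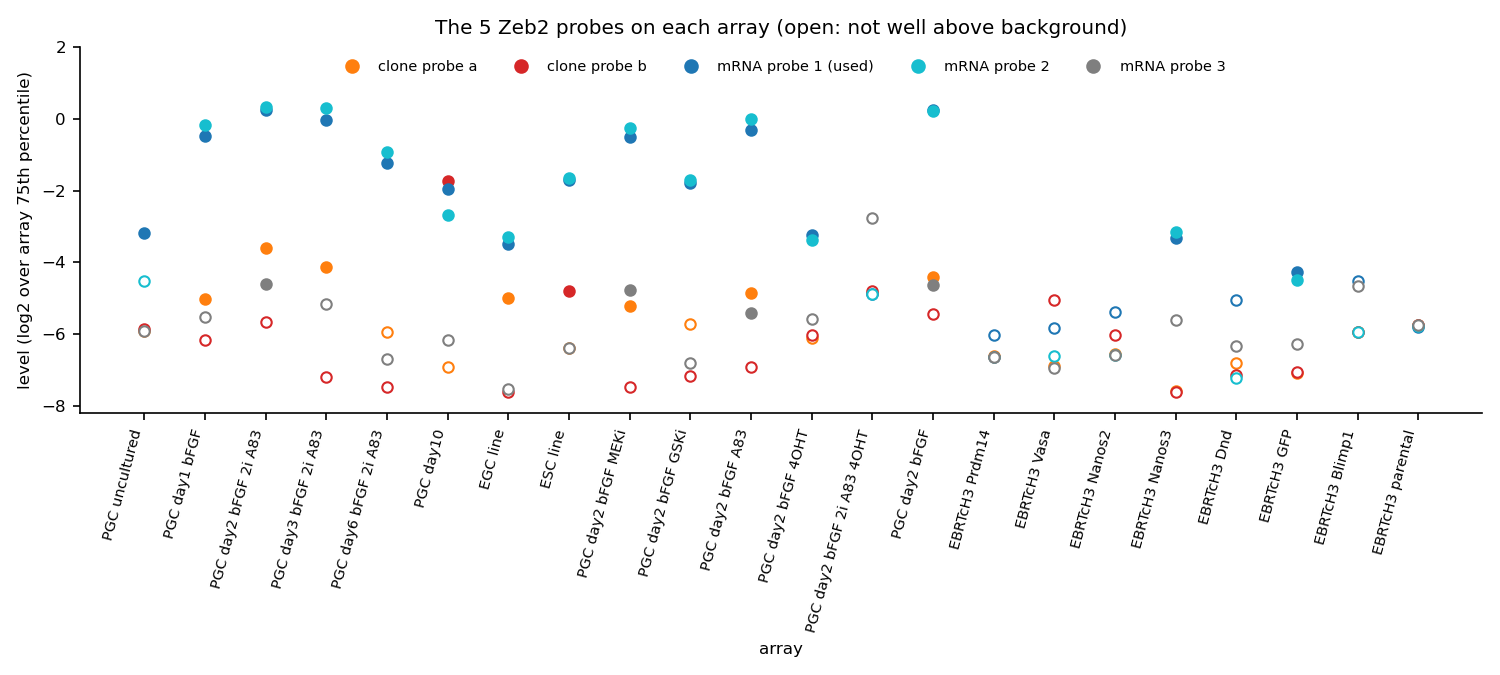
Levels (log2 signal over the array's 75th percentile) of the 5 Zeb2 probes on all 22 arrays, with spots not well above background marked. The 2 brightest mRNA probes run together, and the clone probe measured on 2 arrays stands at -1.74 at day 10.

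The members resembled each other in part. Over the 9 cultures without 4OHT, Snai2 had a Pearson r of 0.92 with Twist1 and 0.91 with Twist2, as a description over arrays that share slides and medium. Across all 22 arrays and 17354 genes, the gene most like Twist2 was Cavin3, a caveola protein (r = 0.98), then Gypc and Il4ra. Nearest to Zeb2 were St3gal2, Fndc3b and Zfand3 (r = 0.97 each), and nearest to Snai2 was Ptgs1, a cyclooxygenase (r = 0.97). Slc39a6, a zinc transporter, was among the 3 nearest for both Snai2 and Twist1 (r = 0.96 each). Likeness was weaker for Zeb1, with Dennd1a at 0.92, and for Snai1, with Osbp at 0.84.

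Promoter windows of 250 bases before to 50 after the start were at hand in RefSeq (GRCm38.p6) for 4 of the 6 genes, as 7 windows. The core that Snail and Zeb proteins bind, CACCTG or CAGGTG on either strand, was in 1 of the 7, and in 20.2% of 32851 windows of all genes. The Twist core CATATG was in 0 of 7 and in 3.92% of all windows. The 1 window is that of Snai1, whose core lies 126 bases before the start. It is shown as 100 bases of the plus strand, chr2:167538022-167538121, with the core in capitals, as the place in the family where such a core was found. A match describes these letters and is not a binding site.
Snai1 promoter: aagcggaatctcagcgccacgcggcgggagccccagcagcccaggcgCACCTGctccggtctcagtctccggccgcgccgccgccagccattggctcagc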

How the data were processed

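Total RNA of 22 samples, 1 per condition, was measured on single-colour Agilent mouse arrays on 10 slides. The authors deposited scanner output made with Agilent Feature Extraction 10.7.3.1, per the submitters' processing notes and the file headers. Its intensity values (processed signals) are background-subtracted and detrended within each array by the scanner software, per the file headers, and not normalized between arrays. The authors' deposited value table holds the same intensities on a linear scale, with a median ratio near 1 on each array, and served as an alternative.

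From these, each probe's level was log2 of the processed signal less the log2 75th percentile of the array. Control spots and outlier spots were left out and repeat spots averaged. A gene was read from its probe with the highest mean level over 22 arrays. Names came from RefSeq by accession for 26918 probes, by symbol for 5082, by synonym for 817, and from the array file for 8357. Probes at or below background in a group give bounds: per array, the higher of the lowest signal well above background and the probe's own.

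Fits used limma 3.58.1 (lmFit, eBayes, two-sided) in R 4.3.3 over all genes, with Benjamini-Hochberg adjustment and a threshold of 0.05, and the scripts were tested on simulated data in which 200 genes differed. Where each group has 1 array, no test was made and 2-fold was counted. Arrays limit precision by their number: no 2 arrays are replicates, so p-values measure the spread between conditions pooled in a fit. The 6 factors, the gene lists and the tests were chosen with earlier results of these data known. Named genes were all members with every probe, Cdh1, up to 4 genes a list and comparison with the largest absolute value, the 3 genes most like each member, and markers a result turns on. Where 5 or fewer genes of a list passed they are named, chosen after their values were seen, except 1 gene that is not reported here. Alternatives were normexp (offset 50) with quantile normalization, quantile normalization, the mean of probes, no filter on dim probes, slide blocks and arrays left out. The Zeb1 probe sequence was not used here.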

Additional observations from a re-analysis of the deposited data

How the results depend on the processing

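Results were recomputed with other normalizations, filters and sets of arrays. No paired analysis was possible because each condition has 1 array. For the cultures against the lines, 3 of 6 factors passed; the number was 1 (Twist2) without parental EBRTcH3, with the course cultures alone and with slide as a random block, and leaving out each line gave 1 to 3. Snai1's difference turned to -0.17 with all 10 line arrays and ran from -0.18 (without the ESC line) to 0.52 leaving out each line, and Zeb1's from -0.52 (without the parental cells) to 1.11. Over all genes 2419 passed, and 240 to 9151 over the alternatives. The Zeb1 slope turned to -0.069 with slide as a fixed block and ran from -0.0085 (without the uncultured array) to 1.19 (without day 10). For 4OHT, 0 of 6 passed, but 5 with normexp and quantile normalization (5147 genes in all), 4 with the mean of probes (4112) and 6 with no filter (15772). For the GSK inhibitor 1, Twist2, passed with slide in place of 4OHT (414 genes, against 0). In the same setting 621 genes passed for the MEK inhibitor and 499 for A83-01, and 0 factors. With normexp and quantile normalization, the factors at least 2-fold apart were 0 (against 2) for the EGC line over day 10, 0 (against 2) for the EGC over the ESC line, 0 (against 1) for the MEK inhibitor over bFGF, and 1 (against 2) for 2i, A83 and 4OHT over 4OHT. Quantile normalization alone gave 1 for the EGC over the ESC line. The count was 4 (against 5) for the GSK inhibitor over bFGF under 3 settings, and under normexp and quantile normalization 5 (against 6) for 4OHT over bFGF and for 2i, A83 and 4OHT over 2i and A83, and 2 (against 3) for day 6 over day 3. The cause of these changes was not tested. For constructs 0 factors passed in any setting, while counts over all genes ran from 0 to 178. Signals at background limit Zeb2 and Twist2 in EBRTcH3 cells.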
